A study of Mus musculus with 3 samples.

Results

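The oligoadenylate synthetase family was described in activated mouse B cells through its members Oas1a, Oas1b, Oas1c, Oas1g, Oas2, Oas3, Oasl1 and Oasl2. They were found by gene symbol in the gene tables of 3 libraries, which gave 8 genes among 33605 symbols. All cells were CD43-negative B cells from the spleens of C57BL/6 mice, kept in RPMI1640 with lipopolysaccharide (LPS), a bacterial cell wall product, and interleukin-4 over 3 days. One culture received JQ1+ at 80 nM, one flavopiridol at 30 nM and one DMSO, the solvent control. JQ1 is an inhibitor of BET bromodomain proteins, which read acetylated histones, and flavopiridol inhibits cyclin-dependent kinases, among them the kinase that lets paused RNA polymerase II elongate. The culture label names DMSO for each of the 3 libraries, so the treatment label was used for grouping. Sex, age and number of mice were not stated in the labels.

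Oligoadenylate synthetases are sensors of double-stranded RNA. On binding it they join ATP into short oligoadenylates, which act as a second messenger in antiviral defence. Interferon raises transcription of the family in most cell types through a transcription factor complex that holds Stat2 and Irf9 and binds the interferon-stimulated response element (ISRE) in promoters. Mice carry several copies of Oas1 next to each other on chromosome 5, where all 8 members lie in the GENCODE M21 annotation (GRCm38).

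Each treatment had 1 library. Differences could therefore not be set against replicate spread, and p-values were not computed. Total RNA had been depleted of ribosomal RNA before sequencing. The counts summed to 51247080 with JQ1+, 50184508 with flavopiridol and 59786847 with DMSO. Levels are the authors' RPKM, which are read numbers scaled to gene length and library total and can be set against each other between genes. A gene was counted as measured at a mean of at least 1 RPKM over the 3 libraries, which 14790 genes and all 8 members reached. The words rose and fell are used where the log2((RPKM + 1)/(RPKM + 1)) of 2 libraries was 1 or more in size, a 2-fold change. Fold differences without the added 1 carry 95% intervals that cover counting error alone. In whole cultures fewer cells that make a transcript and less of it per cell cannot be told apart.

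Promoter sequences are shown because 3 members hold one identical stretch and changed by different amounts. RefSeq promoter windows (GRCm38.p6, 250 bases before to 50 after the start of transcription) were matched by symbol for 6 of 8 members, Oas1a, Oas1c, Oas1g, Oas3, Oasl1 and Oasl2. The 120 bases before the annotated start are printed 5′ to 3′ on the strand of the gene, with matches to the ISRE core (GAAANNGAAA or its reverse complement) in capitals. Oas1a lies at chr5:120907526-120907645, Oas1g at chr5:120887614-120887733, Oas1c at chr5:120812515-120812634 and Oas3 at chr5:120777660-120777779, all on the minus strand.
Oas1a: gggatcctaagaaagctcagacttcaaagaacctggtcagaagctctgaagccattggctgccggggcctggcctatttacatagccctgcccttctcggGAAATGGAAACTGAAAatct
Oas1g: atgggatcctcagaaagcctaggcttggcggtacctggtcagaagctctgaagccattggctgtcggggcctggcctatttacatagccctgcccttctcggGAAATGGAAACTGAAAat
Oas1c: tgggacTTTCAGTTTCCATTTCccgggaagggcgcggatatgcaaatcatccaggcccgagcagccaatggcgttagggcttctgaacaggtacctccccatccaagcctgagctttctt
Oas3: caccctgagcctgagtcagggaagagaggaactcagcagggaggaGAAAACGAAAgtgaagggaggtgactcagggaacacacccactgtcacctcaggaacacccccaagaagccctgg

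Oas1a and Oas1g held the same 16 bases, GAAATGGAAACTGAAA, made of 2 overlapping ISRE cores, at 20 to 5 and 18 to 3 bases before their starts. Oas1c held the reverse complement of exactly these 16 bases, 114 to 99 bases before its start. Oas1b is the neighbour of Oas1c, reads in the opposite direction and starts 121 bases away, so that the 120 bases printed for Oas1c are the whole stretch between both genes. Counted from the start of Oas1b, the 16 bases lay 7 to 22 bases upstream. Oas3 held 1 ISRE core, GAAAACGAAA, 75 to 66 bases before its start. No match to these letters was present in the windows of Oasl1 and Oasl2. Of all 32851 mouse windows of this length 3.44% held a match on either strand. The gamma-activated sequence (GAS, TTCNNNGAA), another element of interferon-driven promoters, was found in 1 member, Oas1a, without overlap with the ISRE cores, and in 8.30% of all windows. A match is a description of the letters and was not tested for binding.

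**Figure D1:**
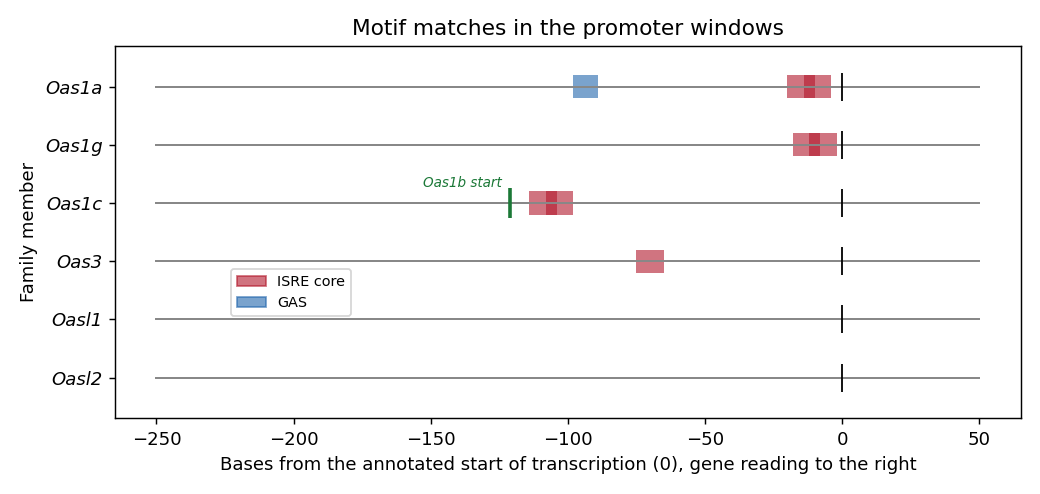
Matches to the ISRE core (red) and GAS (blue) in the promoter windows of 6 family members, against bases from the annotated start of transcription (black tick at 0). Oas1a and Oas1g hold 2 overlapping cores just before the start, and in Oas1c the cores lie beside the start of the neighbouring gene Oas1b (green tick).

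The members differ in how far their reads can be told apart. Words of 50 bases from each member's GENCODE M21 transcripts were looked up in the transcripts of all other genes. Of the Oas1a words 57.6% also occurred in another gene, all of these in Oas1g, and of the Oas1g words 45.7% did. Their coding sequences were 96.7% identical over 1101 aligned bases. Oas1c shared 15.1% of its words, with 5 genes. The largest parts were with Gm43069 (6.28%) and Oas1e (6.07%), and smaller parts with Oas1d and Oas1f. The level of Gm43069 is not given here. Oas1b shared 2.98% and Oas3 0.521%. Oasl2 shared 0.138%, and Oas2 and Oasl1 shared none. Between Oas1b and Oas1c the coding identity was 74.7%, and neither shared a word with the other. The split of reads between Oas1a and Oas1g is therefore uncertain, and their sum is given beside the single values. The handling of reads with several matches is not given in the sources used here.

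**Figure D2:**
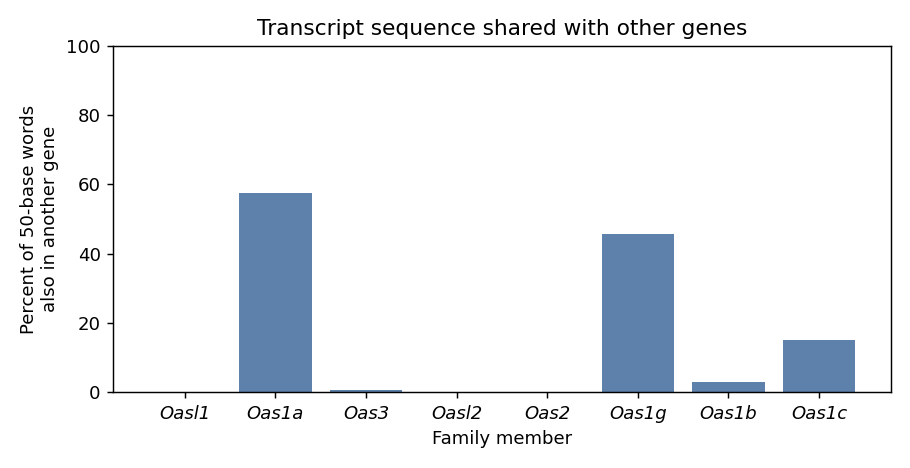
Percent of the 50-base words of each member's transcripts that also occur in a transcript of another gene, with members ordered by level in DMSO. Oas1a (57.6%) and Oas1g (45.7%) stand above the other members.

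With JQ1+ 6 of 8 members fell and none rose, against 5.29% of all measured genes that fell and 1.98% that rose. The 6 were Oas1a, Oas1g, Oas2, Oas3, Oasl1 and Oasl2. With flavopiridol the same 6 fell and none rose, against 2.88% of all measured genes that fell and 3.55% that rose. The log2 changes of the family had a median of -3.48 with JQ1+ and -2.89 with flavopiridol, where the medians of all measured genes were -0.08 and 0.13. At a 4-fold threshold 5 members fell with each drug, against 1.20% of genes with JQ1+ and 0.514% with flavopiridol. Both comparisons use the same DMSO library, so their likeness is not independent.

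The single-unit synthetases Oas1a and Oas1g fell together. Oas1a stood at 5.29 RPKM with JQ1+, 9.41 with flavopiridol and 75.8 with DMSO. Oas1g stood at 0.654 RPKM with JQ1+, 1.27 with flavopiridol and 16.0 with DMSO. Both encode active enzymes in mice, and DMSO was the high library for each. Oas1a was 14.3-fold lower with JQ1+ than with DMSO (interval 11.3 to 18.4) and 8.05-fold lower with flavopiridol (interval 6.61 to 9.88). Oas1g was 24.4-fold lower with JQ1+ (interval 13.5 to 49.5) and 12.5-fold lower with flavopiridol (interval 7.79 to 21.5), and its intervals overlapped those of Oas1a. The sum of both genes, which depends less on how reads were split between them, though reads may have been counted in both, was 5.95 RPKM with JQ1+, 10.7 with flavopiridol and 91.8 with DMSO. It was 15.4-fold lower with JQ1+ (interval 12.4 to 19.5) and 8.59-fold lower with flavopiridol (interval 7.16 to 10.4).

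The large synthetases Oas2 and Oas3, built from repeated synthetase units, both fell with each drug. Their annotated coding lengths were 2253 and 3414 bases, against 1086 to 1128 bases in the Oas1 members. The 1128 bases are those annotated for Oas1b, which is listed as a polymorphic pseudogene. Oas2 stood at 0.310 RPKM with JQ1+, 1.09 with flavopiridol and 17.2 with DMSO. These values were 55.4-fold lower with JQ1+ (interval 29.9 to 116) and 15.8-fold lower with flavopiridol (interval 10.8 to 24.0). The JQ1+ value rests on 26 counts as deposited, before the division by 2.72 used for the intervals. Oas3, the longest member, stood at 0.761 RPKM with JQ1+, 3.01 with flavopiridol and 72.4 with DMSO, which left 1.05% of the DMSO level with JQ1+ (interval 0.698 to 1.52) and 4.16% with flavopiridol (interval 3.34 to 5.12). Of all 14790 measured genes Oas3 had the change ranked 5 from the lowest with JQ1+ and 3 from the lowest with flavopiridol.

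Oas1b and Oas1c, the head-to-head neighbours, kept more of their transcript than any other member. Oas1b, whose intact form protects mice from flaviviruses and which the tables list as a polymorphic pseudogene, stood at 7.37 RPKM with JQ1+, 8.45 with flavopiridol and 14.1 with DMSO. Oas1c stood at 6.39 RPKM with JQ1+, 7.45 with flavopiridol and 12.2 with DMSO. DMSO was again the high library, but neither gene passed the 2-fold rule with either drug. With JQ1+ both were 1.91-fold lower (interval 1.49 to 2.47 for Oas1b and 1.52 to 2.41 for Oas1c). With flavopiridol Oas1b was 1.66-fold lower (interval 1.29 to 2.15) and Oas1c 1.64-fold lower (interval 1.30 to 2.07). The counting intervals of all 4 ratios excluded 1, and those of Oas1b and Oas1c did not reach the intervals of Oas1a and Oas1g, which hold the same 16 promoter bases. The log2 changes of Oas1b were -0.85 with JQ1+ and -0.67 with flavopiridol, and those of Oas1c were -0.83 and -0.64, so each pair of values lay close together.

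The OAS-like genes Oasl1 and Oasl2 encode proteins with ubiquitin-like units at the C-terminal end, and they differed. Oasl1, which lacks synthetase activity and in mice blocks translation of Irf7 mRNA, stood at 56.8 RPKM with JQ1+, 73.5 with flavopiridol and 162 with DMSO. It was 2.86-fold lower with JQ1+ (interval 2.66 to 3.07) and 2.21-fold lower with flavopiridol (interval 2.06 to 2.36). Oasl2, which keeps synthetase activity in mice, stood at 1.42 RPKM with JQ1+, 2.81 with flavopiridol and 28.4 with DMSO. It was 20.0-fold lower with JQ1+ (interval 14.4 to 28.5) and 10.1-fold lower with flavopiridol (interval 7.85 to 13.3). The intervals of these genes lay apart in both comparisons. Their coding sequences were 61.5% identical, and they are direct neighbours on chromosome 5, away from the other 6 members.

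**Figure D3:**
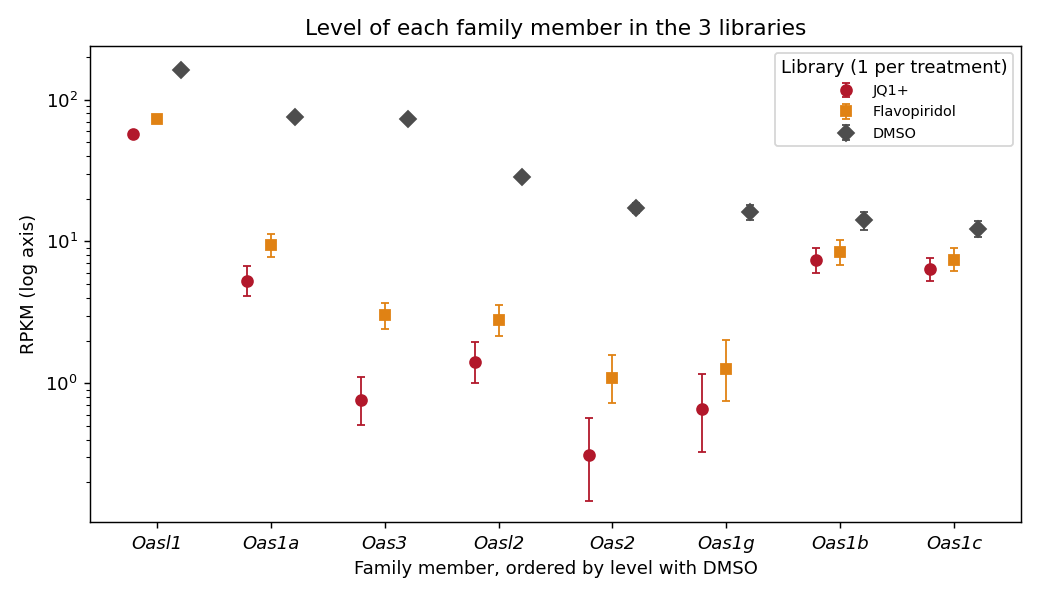
RPKM of each member (log axis) with JQ1+ (circles), flavopiridol (squares) and DMSO (diamonds), 1 library each, with 95% intervals of counting error. DMSO is highest for all 8 members, and Oasl1 is the highest member in each library.

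The order of levels within the family changed with the drugs. With JQ1+ the order was Oasl1, Oas1b, Oas1c, Oas1a, Oasl2, Oas3, Oas1g and Oas2, and the counting intervals of adjacent members overlapped except between Oasl1 and Oas1b and between Oas1a and Oasl2. With flavopiridol the order was Oasl1, Oas1a, Oas1b, Oas1c, Oas3, Oasl2, Oas1g and Oas2, with gaps beyond the intervals between Oasl1 and Oas1a, between Oas1c and Oas3, and between Oasl2 and Oas1g. With DMSO it was Oasl1, Oas1a, Oas3, Oasl2, Oas2, Oas1g, Oas1b and Oas1c. There Oas1a and Oas3 overlapped, as did each adjacent pair from Oas2 to Oas1c. Oas1b and Oas1c were thus the lowest members with DMSO and stood 2 and 3 in rank with JQ1+.

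Oasl1 took a larger share of the family's summed RPKM with either drug. Its share was 71.9% with JQ1+, 68.7% with flavopiridol and 40.8% with DMSO. The share of Oas3 was 0.963% with JQ1+, 2.81% with flavopiridol and 18.2% with DMSO, and the share of Oas1a was 6.70% with JQ1+, 8.79% with flavopiridol and 19.0% with DMSO. The family sum was 79.0 RPKM with JQ1+, 107 with flavopiridol and 398 with DMSO. It was 5.04-fold lower with JQ1+ (approximate interval 4.76 to 5.34) and 3.72-fold lower with flavopiridol (approximate interval 3.53 to 3.93).

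**Figure D4:**
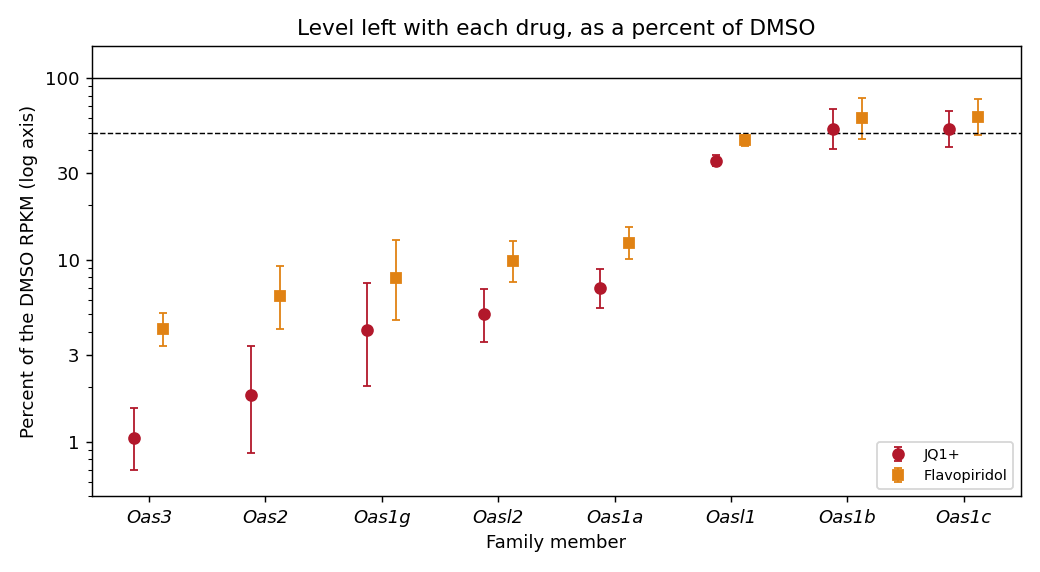
RPKM with JQ1+ (circles) and flavopiridol (squares) as a percent of the DMSO RPKM (log axis), with 95% intervals of counting error; the solid line is the DMSO level and the dashed line 50%. Oas3, Oas2, Oas1g, Oasl2 and Oas1a lie at 12.4% or less with both drugs, while Oasl1, Oas1b and Oas1c lie between 35.0% and 61.1%.

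The plot of all measured genes shows where the members stood. Oas3, Oas2, Oas1a, Oasl2 and Oas1g had the changes ranked 5, 22, 27, 28 and 39 from the lowest of 14790 with JQ1+. With flavopiridol Oas3, Oas2, Oasl2, Oas1g and Oas1a had ranks 3, 12, 17, 18 and 20. Oasl1 had rank 346 with JQ1+ and 325 with flavopiridol. Oas1b and Oas1c had ranks 1052 and 1081 with JQ1+ and 910 and 989 with flavopiridol, within the lower flank of the bulk of genes.

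**Figure D5:**
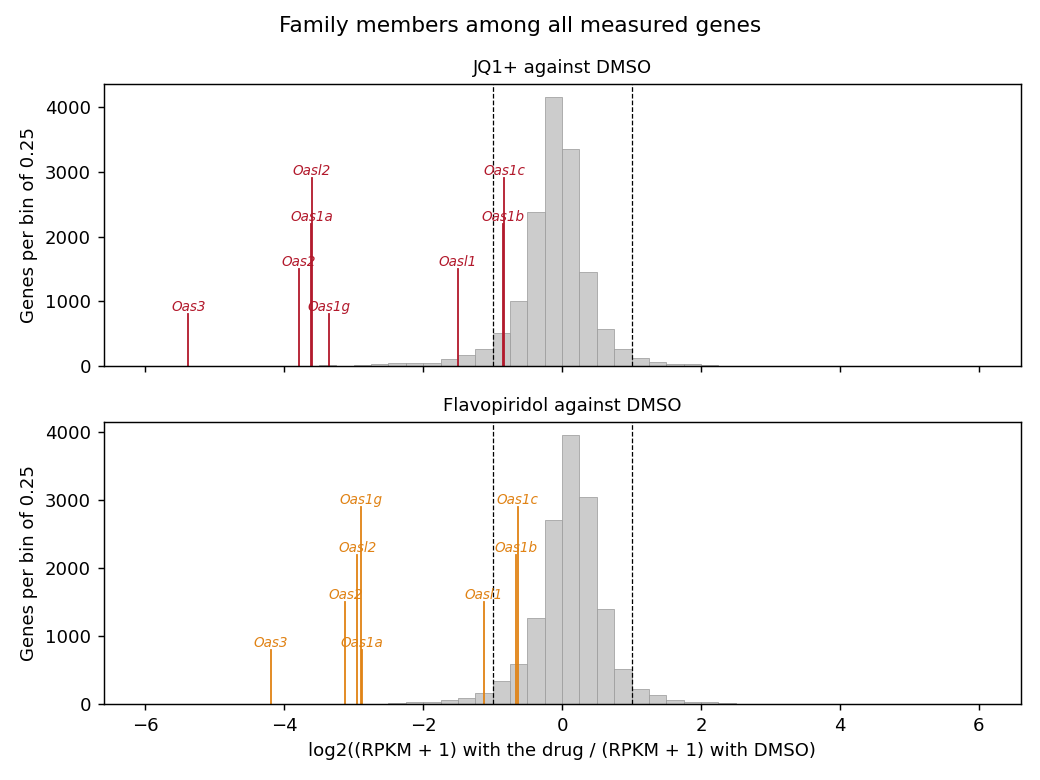
Number of measured genes per bin of log2 change against DMSO (grey bars), with the 8 members marked by labelled lines of arbitrary height and the 2-fold thresholds dashed; the upper panel is JQ1+ and the lower panel flavopiridol. Oas3 lies furthest left in both panels, and Oas1b and Oas1c lie inside the thresholds.

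Between the drugs, 1 member passed the 2-fold rule: Oas3 was lower with JQ1+ than with flavopiridol, by 3.96-fold (interval 2.57 to 6.27). Of all measured genes 6.87% were lower with JQ1+ by this rule. At 4-fold no member passed, against 0.751% of genes. All 8 members had lower RPKM with JQ1+, with a median log2 difference of -0.56 where the median of all genes was -0.21. After median-of-ratios rescaling, where the median over all genes became 0.04, Oas1b and Oas1c stood at log2 differences of 0.07 and 0.05 and the other 6 members were below 0. Of these, Oasl1 moved to -0.09 from -0.37, so its difference between the drugs depended on the scaling. Without the added 1, Oas2 was 3.51-fold lower with JQ1+ (interval 1.65 to 8.09), Oasl2 1.97-fold (interval 1.30 to 3.03), Oas1a 1.78-fold (interval 1.31 to 2.42) and Oasl1 1.29-fold (interval 1.19 to 1.41). The intervals of Oas1g (0.872 to 4.57), Oas1b (0.852 to 1.54) and Oas1c (0.890 to 1.53) included 1, so a difference was not detectable at this depth. The doses were 80 nM and 30 nM of unrelated compounds, and these values stand side by side for 1 culture each.

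Other Oas1 copies were at or near 0. Oas1d and Oas1f had 2 counts each with DMSO and none with either drug, and Oas1h had none in any library, where 3 counts would be 0.0585 CPM with JQ1+, 0.0598 with flavopiridol and 0.0502 with DMSO. Oas1e had 2 counts with JQ1+, 8 with flavopiridol and 4 with DMSO. None of these 4 reached a mean of 1 RPKM.

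Neither of 2 genes listed with the oligoadenylate pathway passed the 2-fold rule with either drug. Pde12, a phosphodiesterase that degrades oligoadenylates, stood at 43.3 RPKM with JQ1+, 88.8 with flavopiridol and 55.5 with DMSO, within 2-fold of DMSO for both drugs. Abce1, a ribosome recycling factor, stood at 260 RPKM with JQ1+, 341 with flavopiridol and 270 with DMSO.

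Among 11 genes of interferon reception and signalling, 4 fell with JQ1+ and 4 with flavopiridol, against 5.29% and 2.88% of all measured genes. None rose with either drug, against 1.98% and 3.55%. Irf7, the interferon regulatory factor that amplifies the response, stood at 8.87 RPKM with JQ1+, 13 with flavopiridol and 120 with DMSO. Irf9, the DNA-binding partner of Stat2, stood at 19.0 RPKM with JQ1+, 27.1 with flavopiridol and 59.5 with DMSO, and Stat2 at 39.3 RPKM with JQ1+, 25.1 with flavopiridol and 80.0 with DMSO. Both fell with each drug. Usp18, which restrains the type I interferon receptor, stood at 1.05 RPKM with JQ1+, 5.09 with flavopiridol and 63.5 with DMSO. The receptor genes Ifnar1 (56.6 RPKM with JQ1+, 45.5 with flavopiridol and 41.5 with DMSO) and Ifnar2 (48.4, 41.8 and 44.2) and the receptor kinase genes Jak1 and Tyk2 were within 2-fold of DMSO. So were Socs1 (79.2 RPKM with JQ1+, 106 with flavopiridol and 109 with DMSO), Irf1 and Irf3.

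Of 16 other RNA sensors and antiviral effectors, 15 were measured. Of these 13 fell with JQ1+ and 11 with flavopiridol, against 5.29% and 2.88% of all measured genes, and none rose. Their median log2 changes were -1.88 with JQ1+ and -1.56 with flavopiridol, smaller in size than those of the family. The dynamin-like GTPase genes Mx1 and Mx2 had log2 changes of -4.77 and -4.0 with JQ1+ and -3.19 and -2.65 with flavopiridol. Rsad2, the antiviral enzyme viperin, had -3.51 with JQ1+ and -2.07 with flavopiridol, and Ifit3 had -2.93 and -2.21. Zbp1, a sensor of Z-form nucleic acid, had -2.79 with JQ1+ and -2.53 with flavopiridol, and the helicase gene Dhx58 -2.46 and -2.29. The double-stranded RNA sensor Ifih1 (-0.57 and -0.61) and the adaptor Mavs (-0.27 and 0.46) did not pass the rule with either drug.

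Interferon genes themselves were barely detected. Of 8 ligand genes listed 6 were in the tables, and none reached a mean of 1 RPKM. Ifnb1 had 0 counts with JQ1+, 2 with flavopiridol and 1 with DMSO, and Ifna2 had 2 counts with DMSO and none with the drugs. Ifna4, Ifnl2 and Ifnl3 had no counts, and Ifng had 2 with flavopiridol alone.

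The genes with profiles most like the family were named by distance over the 3 libraries, among 9317 protein-coding genes outside the family whose mean reached 5 RPKM. The distance was taken between log2(RPKM + 1) profiles centred on their own means, from the median profile of the 8 members. Irf7 was nearest (distance 0.17). Rnf213, a large ubiquitin ligase, followed at 0.19 with 23.6 RPKM with JQ1+, 44.0 with flavopiridol and 309 with DMSO. Next were Gm4955 (0.24), the blood cell nuclear protein gene Hemgn (0.25), the PHD finger gene Phf11a (0.33), the mucin gene Muc1 (0.39), the DNA glycosylase gene Neil1 (0.44) and the interferon-inducible Ifi27l2a (0.47). On the same scale the members themselves lay at 0.10 (Oasl2), 0.11 (Oas1a and Oas1g), 0.24 (Oas2), 1.38 (Oas3), 1.52 (Oasl1), 1.99 (Oas1b) and 2.01 (Oas1c), so the last 4 lay further from the family median than all 8 named genes.

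Markers were checked because dendritic and myeloid cells can also express the family. The 6 B cell markers summed to 4707 RPKM with JQ1+, 3900 with flavopiridol and 3940 with DMSO, and none of them fell, while 1 rose with JQ1+. The 6 conventional dendritic cell markers summed to 10.7 RPKM with JQ1+, 35.1 with flavopiridol and 90.0 with DMSO. Batf3 (55.9 RPKM) and Flt3 (26.6) made up most of the DMSO value, so the lower sums with the drugs rest mainly on these genes. Of the 4 measured ones Flt3 and Batf3 fell with JQ1+ and Batf3 with flavopiridol, while Itgax and Clec9a were near 0 in each library, at 0.0120 and 0 RPKM with DMSO. Xcr1 stood at 0.763 RPKM with JQ1+, 2.59 with flavopiridol and 0.918 with DMSO, and Zbtb46 at 4.36, 6.85 and 6.63. Neither passed the 2-fold rule against DMSO. The 6 plasmacytoid markers summed to 399 RPKM with JQ1+, 383 with flavopiridol and 479 with DMSO. With DMSO Bst2 (247 RPKM), Spib (170) and Tcf4 (45.0) made up most of it, while Pacsin1 was at 15.9 and Ccr9 at 0.871. Of 5 measured, Bst2, itself an interferon-induced gene, fell with each drug, and Siglech was at 0 with DMSO. Myeloid markers summed to 7.48 RPKM with JQ1+, 14 with flavopiridol and 7.88 with DMSO, with Emr1 higher with flavopiridol and Ly6g at 0 throughout. T cell markers summed to 2.52, 2.69 and 2.51 RPKM and natural killer cell markers to 2.78, 1.92 and 3.26 in the same order, with Ncr1 at 0 throughout. The plasma cell markers in the tables, 5 of 6, summed to 874 RPKM with JQ1+, 852 with flavopiridol and 834 with DMSO, where 1 rose with JQ1+ and 2 with flavopiridol. Most of the DMSO sum was Xbp1 (556 RPKM) and Irf4 (235), beside Prdm1 at 26.9, Sdc1 at 13.4 and Tnfrsf17 at 2.16. The part of the dendritic cell markers in the family's change was not tested.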

How the data were processed

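RNA-seq tables of 3 libraries, 1 per treatment, were used. Per the labels' protocols, total RNA was taken with Trizol, depleted with a Ribo-Zero kit and made into Illumina libraries. Per the file headers, each table gives a whole-number count and an RPKM per gene. The counts were deposited without normalization. The authors' deposited RPKM relates each count to gene length and a library total. The submitters' processing notes name the build mm9. For aligner, counter, annotation, strand use and read length: not given in the sources used here.

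Tables were joined by Ensembl identifier, and for the 94 symbols found in more than 1 row only the highest by mean RPKM was used. Changes were log2 ratios after adding 1 to each RPKM, so that those of weakly expressed genes come out too small. With 1 library per group no count model was fitted. The library total behind the RPKM was found from GENCODE M21 exon lengths, using genes of at least 1000 counts. Between 45.0% and 45.4% of these agreed within 0.1%. The totals were 18846511 for JQ1+, 17162726 for flavopiridol and 21047819 for DMSO, so counts summed to 2.72, 2.92 and 2.84 times the total. The reason for this excess is not given in the sources used here. Counts were therefore treated as not independent fragments and divided by these factors. Exact conditional binomial 95% intervals of ratios and exact Poisson intervals of levels were then taken (scipy 1.17.1). Intervals and the limit of 3 counts, which uses undivided counts, cover counting error only. The interval of the family sum used a normal approximation on the log scale. Calling and intervals were tried on simulated Poisson counts of genes with many counts. These held no replicate spread and no shared reads, so they do not show how the intervals of weakly expressed members behave.

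Coding sequences were aligned globally with Biopython 1.88. This nucleotide alignment took the place of a planned protein comparison, for which no protein table was at hand. The division of counts, the comparison of motif stretches, the sum of Oas1a and Oas1g and the ranks among all genes were added after the values were seen. Named genes were all members, Pde12 and Abce1, up to 6 per pathway list with the largest change against DMSO, and the 8 nearest profiles; other list members are named as described after their values were seen. The members, lists and tests were chosen with earlier results of these data known. Ifna1, Ifna5 and Jchain were not matched by symbol. A few listed genes are not reported here, and counts of their lists leave them out. Alternatives were pseudocounts of 0.1 and 5, CPM, rescaling by the median of ratios, other filters on the mean and a 4-fold threshold.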

Additional observations from a re-analysis of the deposited data

How the results depend on the processing

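The counts of 6 members lower with JQ1+ and 6 with flavopiridol stood under pseudocounts of 0.1 and 5, CPM, rescaling by the median of ratios, a mean of at least 5 RPKM and no filter, and became 5 and 5 at a 4-fold threshold. Between the drugs the 1 member lower with JQ1+ became 2 with a pseudocount of 0.1 (Oas3 and Oas2) and 0 with a pseudocount of 5 or at 4-fold. The median log2 change with JQ1+ was -4.02 with a pseudocount of 0.1 and -1.98 with 5, and with flavopiridol -1.80 with a pseudocount of 5, which by construction shrinks members whose level is below it. The family sum as a ratio to DMSO was 0.198 for JQ1+, 0.170 in CPM and 0.213 after rescaling. For flavopiridol it was 0.269, 0.220 in CPM and 0.238 after rescaling. As JQ1+ over flavopiridol it was 0.738 and 0.894 after rescaling, which moved the median of all genes to 0.04 from -0.21 (for flavopiridol against DMSO to -0.03 from 0.13). Of 96 single member values under alternatives 94 were negative. The exceptions were Oas1b and Oas1c between the drugs after rescaling. Oas1b and Oas1c stayed within 2-fold of DMSO under all of these, from -0.92 to -0.59 with JQ1+ and from -0.83 to -0.46 with flavopiridol. No paired analysis was possible because each treatment had 1 library. Levels under about 1 RPKM rest on few counts, with JQ1+ 26 for Oas2, 29 for Oas1g and 75 for Oas3. These are counts before the division by 2.72, and the ratios of these members to DMSO are the least certain.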
